A study of Rattus norvegicus with 2 samples.

Results

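The genes described here encode the motors that carry cargo along microtubules, which are the kinesins, cytoplasmic dynein and dynactin, together with the light chains, regulators and cargo adaptors of these motors. They were chosen by gene symbol alone (Kif, Klc, Dync, Dynl, Dctn and Bicd genes with Pafah1b1, Nde1, Ndel1, Trak1, Trak2, Mapk8ip1 and Mapk8ip3), which took 75 of the 25399 genes listed. Stellate ganglia, the sympathetic ganglia that innervate the heart, were dissociated with collagenase and trypsin, and their cells were sequenced by droplet scRNAseq that counts the 3′ ends of transcripts. Male rats of 5 to 6 weeks of age gave 1 library of the normotensive Wistar strain and 1 library of the prehypertensive SHR (spontaneously hypertensive rat). The values are means over the sympathetic neuron cluster of each library. The paper describes distinct populations of sympathetic neurons, which differ mainly in whether they express neuropeptide Y. Their shares in each library are not known here, and whether their mix differed between the strains was not tested.

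Kinesins walk mostly toward the plus ends of microtubules, which point to the terminals in an axon, and cytoplasmic dynein 1 walks back toward the cell body with its cofactor dynactin. In each motor complex the heavy chain holds the motor domain, and the intermediate and light chains assemble the complex and bind cargo. Sympathetic neurons rely on this traffic to send transmitter vesicles and mitochondria to distant terminals and to return trophic signals to the soma.

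Levels are given as mean counts per 10000 counts of a neuron. Because a transcript is counted at its 3′ end, levels of different genes were compared without division by gene length. Differences between the strains are given as the difference of log2(1 + mean), SHR minus Wistar, which is smaller than the log2 of the ratio for genes with low means, and as the ratio of the means. With 1 library per strain there was no spread between replicates, and no difference between the strains carries an error or a test. The number of neurons and the counts per neuron are unknown, so counting error cannot be stated. The smallest mean above 0 was 0.000140 per 10000 in Wistar and 0.000391 in SHR, and members with means near these values rest on few counts. Counts of members that were lower or higher refer to genes that averaged 0.1 per 10000 or more across the libraries, here called the minimum, which 7621 genes of the series and 47 of the 75 motor genes passed. The 8 markers of sympathetic neurons were all past this minimum, and 4 were lower and 4 higher in SHR, with log2 differences from -0.61 to 0.42. Dbh, which makes noradrenaline, was at 10.2 in Wistar against 6.36 in SHR, a ratio of 1.60, and the vesicular transporter Slc18a2 at 5.36 against 3.63. Snap25, of the vesicle fusion machinery, was at 17.4 against 23.7 and Uchl1 at 25.0 against 30.8, while Th, the first enzyme of the pathway, was at 10.2 against 10.1. Markers of other cell types were also present, and their sums were lower in SHR. The 7 glial markers summed to 9.16 per 10000 in Wistar and 3.40 in SHR, most of it Apoe, and none was at 0. The 4 fibroblast markers summed to 1.00 in Wistar and 0.2004 in SHR, the 4 immune markers to 1.07 and 0.370, and the smooth muscle, erythrocyte and endothelial markers to at most 0.107 a list. Their part in the differences below was not tested.

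The finding is carried by the light chains of dynein on one side and the heavy chains on the other, so the promoters of 4 of these genes are shown. They are the 150 bases before the transcription start in RefSeq (build GRCr8), printed 5′ to 3′ on the strand of the gene. Capitals mark the CCAAT box and the GC box GGGCGG on either strand, and overlapping GC boxes run together. Dynll1 lies at chr12:46972927-46973076 on the plus strand, Dynlt1 at chr1:49298918-49299067 on the minus strand, Dync1h1 at chr6:135436328-135436477 on the plus strand and Kif5b at chr17:56185236-56185385 on the plus strand.
Dynll1: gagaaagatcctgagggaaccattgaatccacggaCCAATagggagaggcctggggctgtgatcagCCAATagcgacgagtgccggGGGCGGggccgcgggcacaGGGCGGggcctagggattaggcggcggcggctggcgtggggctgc
Dynlt1: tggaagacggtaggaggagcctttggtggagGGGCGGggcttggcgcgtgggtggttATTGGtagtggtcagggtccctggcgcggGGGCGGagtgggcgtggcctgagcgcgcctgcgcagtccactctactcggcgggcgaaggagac
Dync1h1: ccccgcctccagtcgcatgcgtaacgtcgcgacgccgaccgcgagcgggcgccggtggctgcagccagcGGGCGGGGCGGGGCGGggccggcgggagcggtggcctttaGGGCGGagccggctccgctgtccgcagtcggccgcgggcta
Kif5b: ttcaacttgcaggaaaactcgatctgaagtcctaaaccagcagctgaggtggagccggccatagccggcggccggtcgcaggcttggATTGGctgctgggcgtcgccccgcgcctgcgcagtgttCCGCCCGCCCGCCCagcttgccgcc
Dynll1 has 2 CCAAT boxes and 2 GC boxes in this window, and Dync1h1 has 0 and 4. Among the 57 of 75 members with a promoter in the table, 33.3% hold CCAAT and 59.6% hold GGGCGG, and the shares over the same window of all 27457 genes in the table are 23.7% and 27.8%. By role, 12 of 32 heavy chains and 2 of 7 light chains hold CCAAT, and 21 of the 32 heavy chains and 6 of the 7 light chains hold GGGCGG, so the GC boxes of this pair do not stand for their roles. These matches describe the letters of the window and not binding by a factor.

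The light chains of dynein 1 were higher in the SHR neurons. Dynll1, the light chain LC8 that binds many partners besides dynein, averaged 9.70 per 10000 in Wistar and 15.5 in SHR. SHR was the higher library, with a log2 difference of 0.62 and a ratio of 1.596. Dynlrb1, a roadblock light chain, was at 3.65 per 10000 in Wistar against 5.51 in SHR (log2 difference 0.49), a ratio of 1.51. Dynlt3, a Tctex-type light chain, was at 3.57 in Wistar against 5.00 in SHR (log2 difference 0.39). Its relative Dynlt1 was at 1.07 in Wistar against 1.45 in SHR (log2 difference 0.25). Dynll2, the second LC8 gene, was at 2.64 in Wistar against 3.62 in SHR (log2 difference 0.34). Each of these 5 light chains had the higher mean in SHR, in ratios from 1.36 to 1.596, whereas 34.4% of all genes past the minimum were higher in SHR. Dynlrb2, a roadblock gene known from ciliated cells, was below the minimum, at 0.00969 per 10000 in Wistar, with 0.0178 in SHR. The 6 light chain genes of dynein summed to 20.6 in Wistar and 31.1 in SHR.

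The heavy chain went the other way. Dync1h1, the motor subunit of cytoplasmic dynein 1, averaged 6.24 per 10000 in Wistar against 4.15 in SHR (log2 difference -0.49). Wistar was higher in a ratio of 1.502, just inside the fold of 1.5 that is used below to count larger differences. The intermediate chains, which link the heavy chain to dynactin, lay between the heavy and the light chains. Dync1i2 was at 6.01 per 10000 in Wistar against 5.04 in SHR (log2 difference -0.21), and its neuronal relative Dync1i1 was at 0.883 and 0.865, a log2 difference of -0.014. The light intermediate chain Dync1li2, which binds the activating adaptors, was at 2.79 in Wistar and 2.77 in SHR. Dync1li1 was at 0.648 in Wistar against 0.572 in SHR (log2 difference -0.068). The smaller of these differences depended on the scaling. When the total left out mitochondrial and ribosomal protein genes, Dync1i1 and Dync1li2 were slightly higher in SHR, by 0.0061 and 0.028, and with the median of all genes set to 0 by 0.038 and 0.048.

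**Figure D1:**
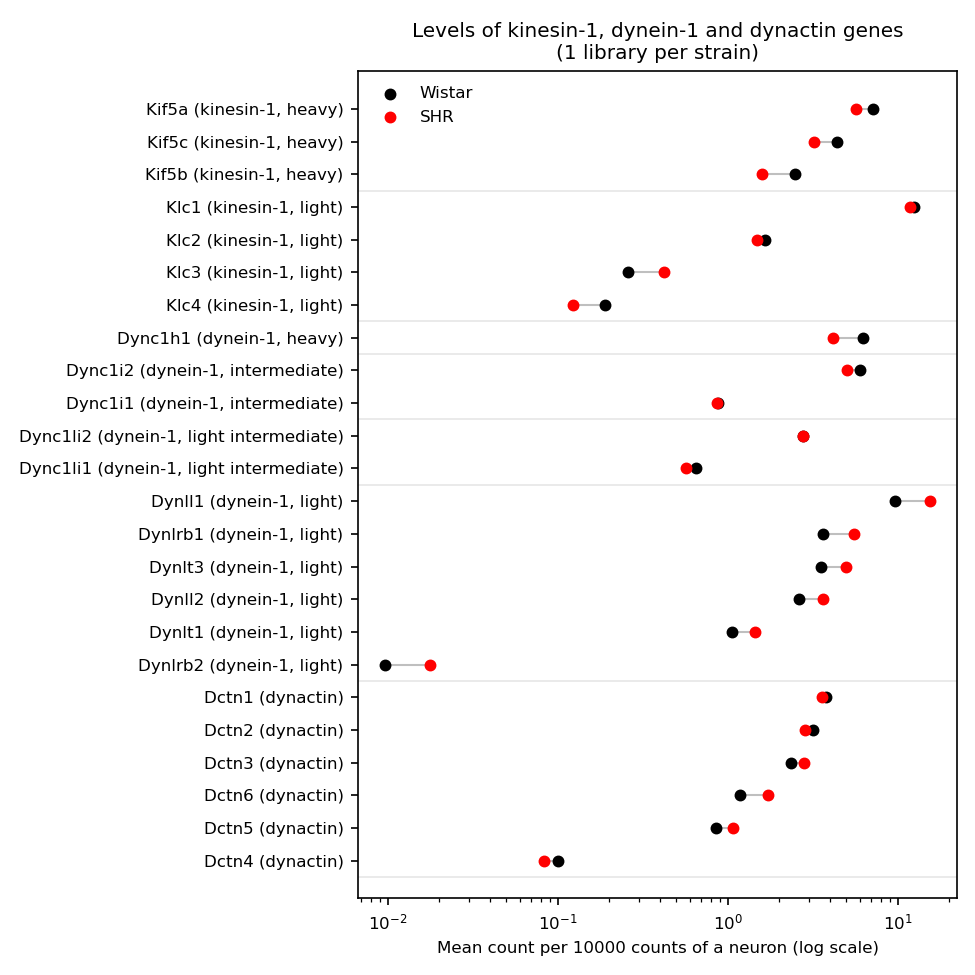
Mean counts per 10000 (log axis) of the genes of kinesin-1, dynein 1 and dynactin in the neurons of the Wistar library (black) and of the SHR library (red), 1 library per strain and so without error bars. Dync1h1 and the Kif5 genes lie to the left in SHR, and the dynein light chains from Dynll1 (9.70 and 15.5) down to Dynlrb2 (0.00969 and 0.0178) lie to the right.

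A ratio of chains within a library does not depend on how that library was scaled. In Wistar, Dynll1 was counted 1.55 times for each count of Dync1h1, and in SHR 3.73 times, so that the ratio was 2.40 times as high in SHR. The other 4 light chains past the minimum also had higher ratios to Dync1h1 in SHR, by 2.05 times for Dynlt1 to 2.27 times for Dynlrb1. Summed over the 6 light chain genes, the ratio to Dync1h1 was 3.31 in Wistar and 7.48 in SHR. For the intermediate chains together the ratio was 1.10 in Wistar and 1.42 in SHR, and for the light intermediate chains 0.551 and 0.805. The small chains therefore all stood higher against Dync1h1 in SHR, the light chains most. The same held for any gene lower in SHR by less than the ratio of 1.502 of Dync1h1. Of all genes past the minimum, 26.5% were lower by a ratio of 1.5 or more. The Kif5 heavy chain genes together also had a higher ratio to Dync1h1 in SHR, 2.25 in Wistar and 2.53 in SHR.

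Kinesin-1, the conventional kinesin that moves vesicles and mitochondria outward, showed a smaller contrast. Its heavy chains were lower in SHR, but its light chains were not higher as a group, at a sum of 14.6 in Wistar and 13.8 in SHR. Kif5a, its neuronal heavy chain, was at 7.19 per 10000 in Wistar against 5.70 in SHR (log2 difference -0.29). Kif5c, also neuronal, was at 4.38 in Wistar against 3.21 in SHR (log2 difference -0.36). Kif5b, the heavy chain found in most cell types, was at 2.49 in Wistar against 1.596 in SHR (log2 difference -0.43). All 3 were lower in SHR and their order was the same in both libraries, with Kif5a making up 51.1% of the sum in Wistar and 54.3% in SHR. The kinesin light chains, which bind cargo adaptors through their tetratricopeptide repeats, were led by Klc1. Klc1 was the most abundant motor gene in Wistar, at 12.5 per 10000, and was at 11.8 in SHR, a log2 difference of -0.076. Klc2 was at 1.66 in Wistar against 1.49 in SHR (log2 difference -0.098). The 2 rare light chains differed more in ratio and in opposite directions. Klc3 was at 0.259 in Wistar and 0.421 in SHR, and Klc4 at 0.189 in Wistar and 0.124 in SHR. In GRCr8 Klc3 overlaps Ercc2, which was at 0.274 in Wistar and 0.115 in SHR, and how reads in the overlap were counted is not known. The Klc genes together had a ratio to the Kif5 genes of 1.04 in Wistar and 1.32 in SHR. This ratio was 1.27 times as high in SHR, against 2.26 times for the light chains of dynein 1.

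**Figure D2:**
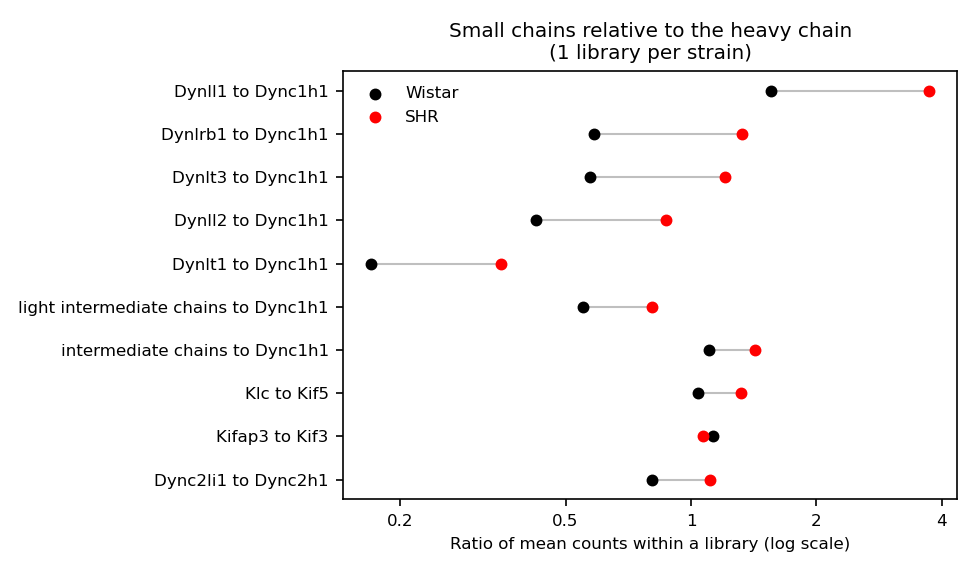
Ratios of small chains, and of the accessory subunit Kifap3, to their heavy chains within the Wistar library (black) and within the SHR library (red). The axis is a log axis, and there are no error bars as there is 1 library per strain. The ratios of the dynein light chains to Dync1h1 are farthest apart (1.55 and 3.73 for Dynll1), and that of Kifap3 to the Kif3 genes is close in both libraries (1.13 and 1.07).

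In the remaining 2 complexes that pair a heavy chain with another subunit the differences were small or rested on low means. Kinesin-2 carries vesicles and the building blocks of cilia. Its motor Kif3a was at 1.67 per 10000 in Wistar, with 1.55 in SHR, Kif3b at 0.803 and 0.692, and Kif3c at 0.219 and 0.185. The accessory subunit Kifap3, which is not a light chain, was at 3.03 in Wistar and 2.60 in SHR, and its ratio to the Kif3 genes was 1.13 in Wistar and 1.07 in SHR. Kif17, the homodimeric kinesin-2, was listed at 0.00103 in Wistar and at 0 in SHR. Dynein 2, the motor of transport inside cilia, was scarce. Its heavy chain Dync2h1 was at 0.334 in Wistar and 0.188 in SHR, and its light intermediate chain Dync2li1 at 0.268 and 0.208, so that their ratio was 0.804 in Wistar and 1.11 in SHR. Of the dynein 2 subunits outside the symbol rule, Tctex1d2 was higher in SHR, at 0.396 in Wistar and 0.550 in SHR. Wdr34 and Wdr60 were lower, at 0.226 and 0.152 in Wistar and at 0.155 and 0.0903 in SHR.

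Kif1b, a kinesin-3 motor of synaptic vesicle precursors and mitochondria, was the most abundant kinesin motor in both libraries, at 8.25 per 10000 in Wistar against 6.16 in SHR (log2 difference -0.37). Kif1a, its close relative and the main carrier of dense core vesicles in neurons, was at 1.63 in Wistar against 1.02 in SHR (log2 difference -0.38). Kif1b thus exceeded Kif1a by several times in both strains, with 82.0% of the Kif1a, Kif1b and Kif1c sum in Wistar and 85.0% in SHR. The scarcer kinesin-3 genes were also lower in SHR, although Kif16b was not with the median of all genes set to 0. Kif13a was at 0.309 in Wistar and 0.146 in SHR, Kif1c at 0.173 and 0.0662, and Kif16b, an endosome motor, at 0.163 and 0.135. Kif13b, below the minimum, was at 0.0938 and 0.0188. The KIF1-binding protein gene Kif1bp, which encodes no motor, was at 0.584 in Wistar and 0.569 in SHR.

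Kifc2, a minus-end kinesin of neurons, had the largest log2 difference of the 47 motor genes past the minimum. It was at 1.66 per 10000 in Wistar against 0.421 in SHR (log2 difference -0.91), a ratio of 3.96. Its rank among all genes was 990 in Wistar and 3380 in SHR. Kifc3, of the same family, was below the minimum at 0.0508 and 0.0334. Kif21a, a kinesin-4 that restrains microtubule growth, was at 2.13 in Wistar against 1.57 in SHR (log2 difference -0.29). Its neuronal relative Kif21b was listed at 0.00341 in Wistar and at 0 in SHR. Kif26b, an unconventional kinesin, was at 0.409 in Wistar and 0.204 in SHR, and the microtubule depolymerase Kif2a at 0.679 and 0.585.

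The kinesins of cell division were at or near 0 with a single exception. Of 12 such genes, 11 were below the minimum, with means of at most 0.0228 per 10000 in either library. Kif14 and Kif18b were listed at 0 in both libraries, and Kif23 and Kif4a in SHR alone. The 8 markers of dividing cells summed to 0.0853 per 10000 in Wistar and 0.0379 in SHR. Kif2c, a depolymerase of the mitotic centromere, was instead at 1.11 per 10000 in Wistar, with 0.840 in SHR, more than its neuronal relative Kif2a.

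Across the 43 genes with a motor domain, 18 passed the minimum, and these 18 were all lower in SHR, against 65.6% of all genes past the minimum. Most of the 18 were long genes, and a larger share of long genes was lower, as given with the length classes below. The median log2 difference of the 18 was -0.21, beside -0.05 for all genes. By a ratio of at least 1.5, 8 of the 18 were lower in SHR, against 26.5% of all genes past the minimum. Of the 25 motor domain genes below the minimum, 9 were lower in SHR, 6 were listed at 0 in SHR alone (Kif4a, Kif6, Kif17, Kif21b, Kif23 and Kif24), 5 were higher in SHR (Kif7, Kif9, Kif11, Kif15 and Kif20b) and 5 were listed at 0 in both (Kif2b, Kif12, Kif14, Kif18b and Kif28p). The 9 lower ones were Kif13b, Kif18a, Kif19, Kif20a, Kif22, Kif26a, Kif27, Kifc1 and Kifc3. Zeros in SHR alone were common in the whole series: of 25395 genes with a unique name, 1744 were at 0 in SHR alone and 389 in Wistar alone. Of the 25395 genes, 17774 were below the minimum. The shares of these that were lower or higher are not given here, so the directions of the 25 have no background beside them. With the median of all genes set to 0, lower and higher genes are by construction equally many over all genes past the minimum. In that setting 16 of the 18 were lower, and Kif3c and Kif16b became slightly higher. Over the 47 motor genes past the minimum of every role, 37 (78.7%) were lower and 10 higher in SHR, against 65.6% of all genes lower, and the median log2 difference was -0.08. Of these 47, 12 were lower by a ratio of at least 1.5, close to the share of all genes. Klc3, Dynlrb1 and Dynll1 were higher by that ratio, where 5.22% of all genes past the minimum were. The 75 genes summed to 114.1 per 10000 in Wistar and 110.2 in SHR, so the total differed little while heavy chains were lower and dynein light chains higher.

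**Figure D3:**
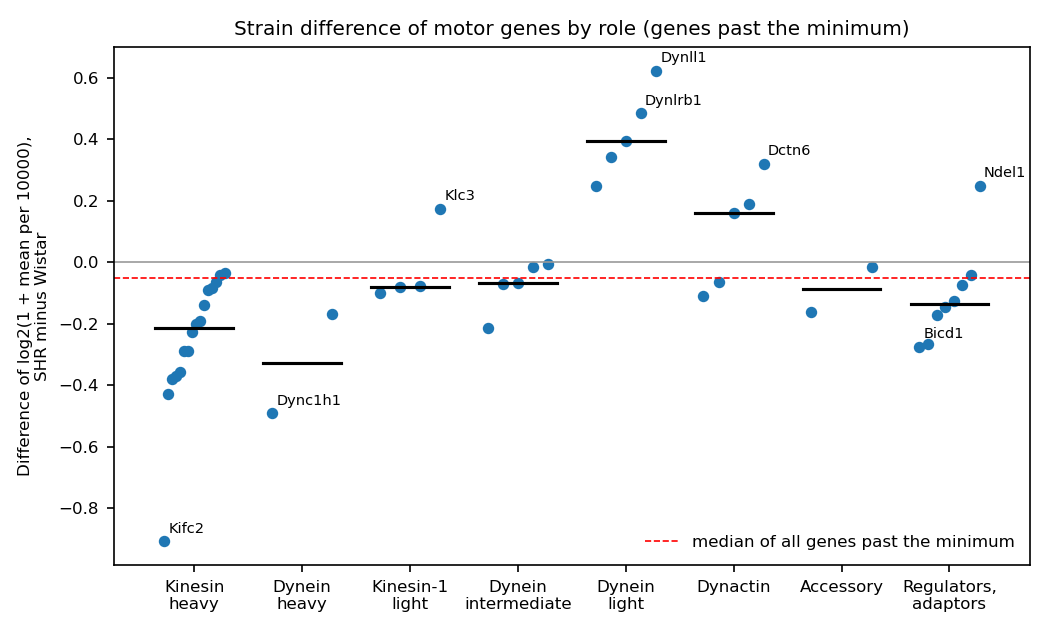
Difference of log2(1 + mean per 10000), SHR minus Wistar, for each motor gene past the minimum, grouped by role. Bars mark the median of a role, the dashed line marks the median of all genes past the minimum (-0.05), and there are no error bars because each strain has 1 library. The heavy chains are all below 0, down to Kifc2 (-0.91), and 2 of them (Kif3c and Kif16b) lie above the dashed line, and the 5 dynein light chains are all above 0, up to Dynll1 (0.62).

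Gene length moved with these differences. The spans of genes in GRCr8, a later assembly than the Rnor_6.0 named for these data, were used as ranks to form 10 length classes of equal size, from class 1 with the shortest genes to class 10 with the longest. In class 1, 27.1% of genes were lower in SHR, and in class 10, 85.6%. The 18 heavy chains lay in the classes 2 to 10 with a median of 8, and the 5 dynein light chains in the classes 2 to 6 with a median of 5. Most of the heavy chains lay in the classes 7 to 10, in which 76.1% to 85.6% of genes were lower, more than the 65.6% of all genes. Dynll1 and Dynlrb1 both lay in class 6, in which 72.4% of genes were lower in SHR and the median log2 difference was -0.06. Kifc2 lay in class 2, among short genes of which 47.3% were lower. With the median of its own class subtracted from each gene, the 5 dynein light chains were all higher in SHR, with a median of 0.41, and the 5 heavy chains of kinesin-1, dynein 1 and dynein 2 were all lower, with a median of -0.23. Of the 18 heavy chains, 14 were then lower, where by construction lower and higher genes are equally many within each class.

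**Figure D4:**
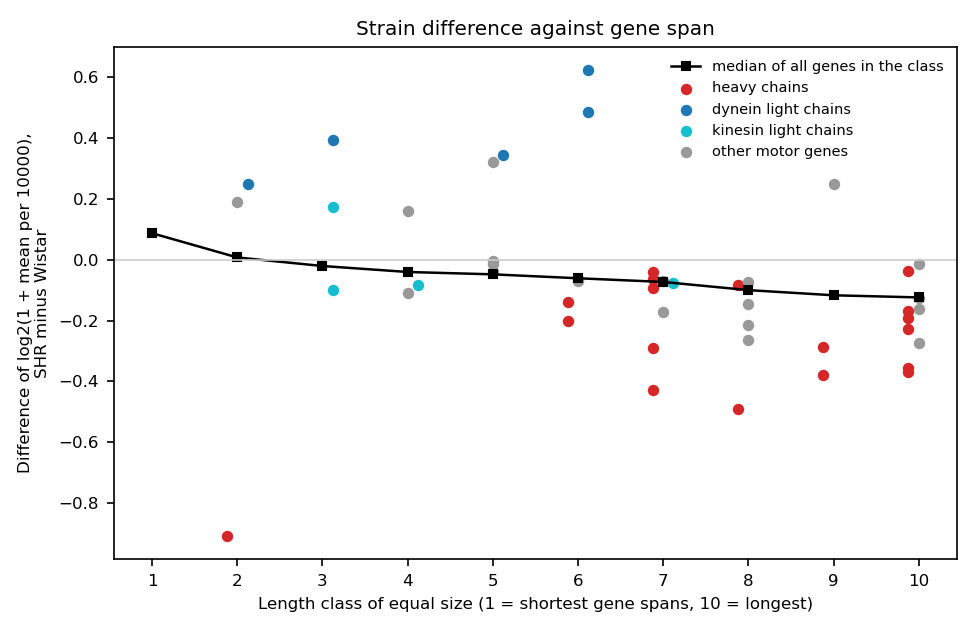
Difference of log2(1 + mean per 10000), SHR minus Wistar, against the length class for the motor genes past the minimum, with the median of all genes in each class as a black line (0.09 in class 1, -0.12 in class 10). The dynein light chains lie above the line and most heavy chains below it, and points carry no error bars because each strain has 1 library.

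Dynactin, the complex that makes dynein processive, was split by subunit. Dctn1, the p150 subunit that binds microtubules and dynein, was at 3.79 per 10000 in Wistar against 3.58 in SHR (log2 difference -0.065). Dctn2, dynamitin, was at 3.16 in Wistar against 2.86 in SHR (log2 difference -0.11). The small subunits were higher in SHR. Dctn3, the p24 subunit of the shoulder, was at 2.36 in Wistar against 2.83 in SHR (log2 difference 0.19). Dctn5 and Dctn6, of the pointed end, were at 0.852 and 1.18 in Wistar and at 1.07 and 1.72 in SHR, with log2 differences of 0.16 and 0.32. Dctn4 was below the minimum at 0.1001 and 0.0833. The dynactin subunits that carry other names followed no single direction. Actr1a and Actr10 were lower in SHR, and Actr1b, Capza1, Capza2 and Capzb were higher, Capza1 by only 0.009. The counts that follow also take in further subunits of dynein 2. Of 9 genes of the Arp1 filament, its cap and dynein 2, 4 were lower and 5 higher in SHR, with a median of 0.009, where 65.6% of all genes were lower and 34.4% higher. Among them Capzb, the beta subunit of the capping protein, was at 2.16 in Wistar and 2.98 in SHR, and Actr1b, an Arp1 gene, at 1.37 and 1.72, whereas Actr1a, the other Arp1 gene, was at 1.90 and 1.63 and Wdr34, of dynein 2, at 0.226 and 0.155.

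The regulators of dynein differed among themselves. Pafah1b1 (Lis1), which helps dynein form its active complex, was at 7.93 per 10000 in Wistar against 7.49 in SHR. It was counted 1.27 times for each count of Dync1h1 in Wistar and 1.80 times in SHR. Its partner Ndel1 was at 0.916 in Wistar against 1.28 in SHR (log2 difference 0.25), the highest among regulators and adaptors. Nde1, the partner known from dividing progenitors, was below the minimum at 0.00629 and 0.00447. The activating adaptor Bicd1 was at 0.654 in Wistar and 0.368 in SHR, and Bicd2 at 0.630 and 0.474. Trak1 and Trak2, which attach motors to mitochondria, were at 0.602 and 0.649 in Wistar and at 0.467 and 0.373 in SHR, so the order of the pair was reversed between the libraries. The JNK scaffolds Mapk8ip1 and Mapk8ip3 were at 1.26 and 0.398 in Wistar and at 1.19 and 0.242 in SHR. Of the 8 regulators and adaptors past the minimum, 7 (87.5%) were lower in SHR, where 65.6% of all genes were, and the median log2 difference was -0.14. With the median of all genes set to 0, which makes lower and higher genes equally many over all genes, 6 of the 8 were lower, since Mapk8ip1 was then higher. A further list of 32 motor adaptors had 22 genes past the minimum, of which 14 were lower and 8 higher in SHR, with a median of -0.10. The share lower, 63.6%, was close to the 65.6% of all genes. At its ends stood Snph, the docking protein of axonal mitochondria, at 1.15 in Wistar and 0.514 in SHR, and Kidins220, a kinesin-1 cargo in neurotrophin signaling, at 4.08 and 2.63. At the other end were Arl8a, a small GTPase that couples lysosomes to kinesin, at 5.50 in Wistar and 8.06 in SHR, and Borcs5, of the complex that recruits Arl8, at 0.0721 and 0.159.

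The myosins, the motors of actin, gave the same comparison in another family. Of 9 myosin heavy chains past the minimum, 8 (88.9%) were lower in SHR, against 65.6% of all genes and 81.5% to 85.6% of the genes in the length classes 8 to 10, where these heavy chains lay. Their median log2 difference was -0.11. Myo9b was at 0.658 per 10000 in Wistar, with 0.208 in SHR and Myo9a at 1.35 and 0.812, while Myo1d was at 0.151 and 0.162 and Myh10, nonmuscle myosin IIB, at 1.02 and 0.983. Of 3 myosin light chains past the minimum, Myl6 was at 8.87 in Wistar and 10.7 in SHR, Myl12b at 2.49 and 2.88, and Myl12a at 0.244 and 0.181. The ratio of the summed light to the summed heavy chains was 2.17 in Wistar and 3.77 in SHR, 1.73 times as high in SHR. The 3 light chains lay in the length classes 1 to 4, so length and chain type cannot be told apart in this family.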

How the data were processed

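The 2 libraries, 1 of Wistar and 1 of SHR stellate ganglion cells, were made with 10x Genomics 3′ chemistry (v3). The submitters' processing notes name Cell Ranger 3.0.2, Seurat 3 and the genome build Rnor_6.0. The values deposited by the authors are on a natural log scale, ln(1 + mean count per 10000) over the sympathetic neurons of a library. The authors' table of fold changes and p-values was not used, nor were its 2 columns of shares of cells, which do not name a strain. Filters on cells and the treatment of doublets are not given in the sources used here, and means over cells do not show doublets.

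The values were converted back from the natural log, and 4 lines whose name occurs again were dropped. Means, ratios and differences of log2(1 + mean) were computed with Python 3.11.15, NumPy 2.4.6 and pandas 2.3.3. The calculation was tested on a copy of the Wistar values in which chosen genes were changed by a known ratio. No noise was added, so that test covers the arithmetic alone. The minimum was an average of 0.1 per 10000. The members and lists were chosen with earlier results of these data known, and all members could be named. For the other lists, the 2 highest and 2 lowest differences were named. Ercc2, Th, Apoe, Tctex1d2, Wdr60, Actr10, Capza1 and Capza2 were named after their values were seen. Gene spans were matched by symbol or synonym for 7289 of the 7621 genes past the minimum (95.6%) and for all 47 motor genes past it. The alternatives were other pseudocounts, minimums, totals, centrings and folds. Depth is unknown, so no interval was computed.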

Additional observations from a re-analysis of the deposited data

How the results depend on the processing

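The 18 heavy chains past the minimum of 0.1 per 10000 were lower and the 5 dynein light chains past it higher in SHR under the pseudocounts and totals tried. With the median of all genes at 0, which makes lower and higher genes equally many, 16 of the 18 heavy chains were lower. No paired analysis was possible because the strains were sequenced once each. Centring on the length class, and the comparisons of dynein 1 alone, kinesin-1 alone and all heavy chains, were chosen after the data were examined. Values below are in the order pseudocount 0.1, pseudocount 10, no minimum, minimum of 1 per 10000, total without mitochondrial and ribosomal protein genes, median of all genes at 0, median of the length class at 0. The median difference of the motor genes (-0.08) became -0.19, -0.018, -0.030, -0.075, -0.078, -0.031 and -0.0097. That of the heavy chains (-0.21) became -0.43, -0.032, -0.030, -0.37, -0.24, -0.16 and -0.12. That of the intermediate, light intermediate and light chains together (-0.009) is close to 0. It became -0.016 and -0.0018 with the pseudocounts and changed sign to 0.25 at a minimum of 1, 0.017 with the other total, 0.043 with the median at 0 and 0.077 by length class.

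The difference between heavy chains and these smaller chains of the same complexes (-0.35) became -0.56 and -0.12 with the pseudocounts, -0.64 at a minimum of 1, -0.35 with the other total and -0.31 by length class. It was -0.60 against light chains alone, -0.75 against dynein 1 light chains, -0.74 within dynein 1, -0.28 within kinesin-1 and -0.20 with all heavy chains. For a single gene the pseudocount sets the size of a difference by construction and cannot change its sign. A difference of medians is not bound in this way, and here it stayed below 0 with both pseudocounts. Other causes were not tested.

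Of the counts, 10 motor genes higher in SHR became 16 with the median at 0 and 20 by length class. The minimum changes how many genes are counted. With no minimum 54 motor genes were lower and 16 higher, and at a minimum of 1 fewer genes passed, 18 lower and 8 higher. The 2 centrings make lower and higher genes equally many over all genes or within a class. Counts past a ratio of 1.5, 12 lower and 3 higher, became 26 and 6 with no minimum and 4 and 2 at a minimum of 1. They were 20 and 9 at a ratio of 5 to 4, and 4 and 0 at a ratio of 2. Shares of all genes at these other minimums and ratios are not given here, so these counts have no background beside them. Without the highest light chain (Klc1 in Wistar, Dynll1 in SHR) the summed light to heavy ratio of kinesin-1 and dynein 1 went from 1.74 to 1.12 in Wistar and from 3.06 to 2.01 in SHR. The markers of other cell types made up 0.115% of the total in Wistar and 0.0412% in SHR. Leaving so small a part out of the total moved none of the 47 genes by 0.005 or more, by construction. It does not take transcripts of other cells out of the means, so their part in the differences was not tested. Signs changed for 3 genes with the other total, 6 with the median at 0 and 10 by length class, all of them genes lower in SHR by less than 0.1 before.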
